A study of Mus musculus with 34 samples.

Results

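The comparison sets adult against juvenile cortical astrocytes: 3 libraries from mice at postnatal day 60 (P60) against 6 juvenile libraries, 3 from P21 and 3 from P28. These 9 libraries, chosen by age, belong to a series of 34 libraries at 9 ages. Every mouse was a wild-type (WT) male, with no transgene or treatment. Astrocytes were isolated from the cortex by a magnetic method whose antibody is not given in the sources used here, polyadenylated RNA was amplified with a low-input kit, and the libraries were sequenced on a NovaSeq instrument. The labels do not say whether each library came from 1 mouse or from pooled mice, so the p-values measure the spread between these libraries.

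Astrocytes are glial cells that take up glutamate and GABA after synaptic release, buffer potassium and water, supply lactate and cholesterol to neurons, and cover the capillaries with their endfeet. In rodents they multiply in the first postnatal weeks. Over the following weeks they extend fine processes and increase their transporters, gap junctions and water channels, while developmental matrix proteins and cell division decline. The interval from weaning to young adulthood comes at the end of that period.

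Levels are TPM, a length-corrected share of all transcripts that sums to 1e+06 in each library. TPM keep no read counts, so the depth is unknown and no counting interval is given. Fold changes, P60 relative to juvenile, are differences of mean log2(TPM + 1), which understate changes of low genes. A gene was called, and is said to have risen or fallen, at a Benjamini-Hochberg adjusted p under 0.05 in a limma model over all 13941 genes that reached 1 TPM in 3 or more of the 9 libraries. P60 values are given for libraries 1, 2 and 3 in that order, and juvenile values are the lowest, median and highest of 6. Averages are mean ± SD, with n = 3 at P60 and n = 6 in juvenile libraries. Coordinates are those of GENCODE mouse release 21 (build GRCm38).

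Defining astrocyte markers were abundant in every library. Aldoc, an astrocyte-enriched glycolytic enzyme, had 12208, 11376 and 12165 TPM at P60, against 11530.2, 12501 and 13124 TPM in juvenile libraries. Markers of neurons and myelin were lower but present. Camk2a of excitatory neurons had 163, 76.9 and 63.8 TPM at P60, against 35.1, 58.7 and 104 TPM in juvenile libraries. Mbp of myelin had 1017, 931 and 756 TPM at P60, against 315, 916 and 1478 TPM in juvenile libraries. Both ranges overlapped. The number of genes at 0 TPM was lower at P60, at 2978 ± 140 (SD, n = 3), against 3391 ± 143 in juvenile libraries (SD, n = 6). Each P60 library had fewer such genes than each juvenile library, a difference of -412.7 with an exact two-sided permutation p of 0.0238, the smallest that 84 regroupings allow. Counting genes under 0.1 TPM instead gave a difference of -111.8 (exact permutation p = 0.452).

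In all, 1300 of the 13941 genes (9.33%) were called. Of these, 450 rose (3.23% of all genes) and 850 fell (6.1%), with a median log2 fold change over all genes of -0.06. Most changes were small, and 26 genes rose and 68 fell by at least a factor of 2. All P60 libraries lay above all juvenile libraries for 710 genes (5.09%) and below them for 1557 (11.2%). The split of directions depended on scaling: after median-of-ratios rescaling, which moved the median of all genes to 0.01, 915 genes rose and 846 fell. Without P60 library 1 the calls numbered 477, and without P60 library 2 they numbered 642.

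**Figure D1:**
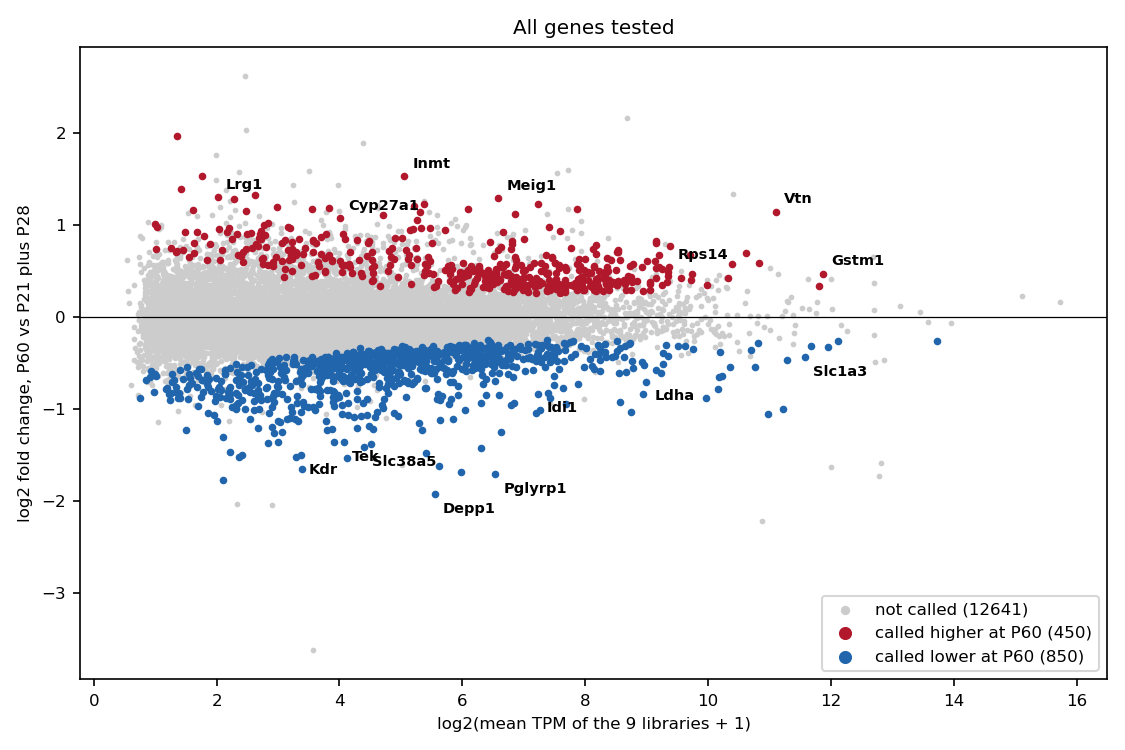
Log2 fold change of P60 relative to P21 plus P28 (y axis, on log2(TPM + 1)) against the mean level over the 9 libraries (x axis, log2 scale) for the 13941 genes tested. Points are genes, with the 450 called higher at P60 in red, the 850 called lower in blue and the rest in grey. Called genes lie on both sides of 0, and grey points far from 0 are genes that varied widely within a group.

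Against each juvenile age alone, which shares the P60 libraries with the pooled comparison, P60 differed from P21 in 1018 genes (7.3%), 550 higher (3.95%) and 468 lower (3.36%). From P28 it differed in 1156 (8.29%), 196 higher (1.41%) and 960 lower (6.89%), a split that median-of-ratios rescaling turned into 303 higher and 381 lower. Single libraries weighed on both counts: without P21 library 2 the calls against P21 numbered 441, and without P28 library 3 those against P28 numbered 206. Between P28 and P21 0 genes (0%) were called by limma, with 1585 genes at an unadjusted p under 0.05 and a smallest adjusted p of 0.0584. Median-of-ratios rescaling called 8 genes between P28 and P21.

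The 12 largest rises included enzymes, secreted proteins and genes of cilia. They were taken only from called genes whose P60 and juvenile values did not overlap, so that separation was set by the selection. Inmt, an N-methyltransferase of indoleamines on chromosome 6 (chr6:55170626-55175043), had 39.1, 55.8 and 78.3 TPM at P60, against 12.2, 18.1 and 30.2 TPM in juvenile libraries. Its groups did not overlap, and the log2 fold change was 1.53 (SE 0.28, adjusted p = 0.011). Lrg1, a secreted leucine-rich glycoprotein, had 4.7, 5.32 and 7.15 TPM at P60, against 1.25, 1.8 and 2.15 TPM in juvenile libraries (1.30, SE 0.17, adjusted p = 0.00111). Acbd7, an acyl-CoA-binding protein, had 7.51, 14.3 and 6.68 TPM at P60, against 1.73, 3.07 and 4.24 TPM in juvenile libraries. As the selection required, all 3 genes were higher in each P60 library than in each juvenile library. Crip1, a small LIM-domain protein, was steady within P60, at 349.6, 392 and 363 TPM, against 123, 173 and 219 TPM in juvenile libraries (1.17, adjusted p = 0.00285). Sncg, gamma-synuclein, had 80.4, 64.4 and 51.7 TPM at P60, against 16, 25.4 and 39.9 TPM in juvenile libraries. Its values were above those of all juvenile libraries, and P60 library 1 was highest. Prxl2b, a prostaglandin F synthase, and Cd59b, an inhibitor of complement lysis, rose by 1.23 and 1.18 on the log2 scale. The iron carrier transferrin, Trf, which oligodendrocytes and choroid plexus also make, had 108, 72.2 and 143 TPM at P60, against 34.1, 44.4 and 71.9 TPM in juvenile libraries. P60 library 2 lay only just above the highest juvenile library.

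The remaining 4 of the 12, Meig1, Calml4, Krt18 and Ccdc78, were all highest in P60 library 1. Meig1, which acts in spermatid and cilium formation, had 226, 128 and 118 TPM at P60, against 43, 54.4 and 96.6 TPM in juvenile libraries. Ccdc78, needed for the multiplication of centrioles in multiciliated cells, had 26, 15.3 and 11.9 TPM at P60, against 4.77, 6.86 and 11.7 TPM in juvenile libraries. Krt18, a keratin of simple epithelia, had 20, 9.09 and 7.23 TPM at P60, against 3.22, 4.15 and 6.14 TPM in juvenile libraries. The ependymal and choroid plexus list (10 genes) moved with them: its mean log2(TPM + 1) was 6.47, 5.36 and 5.19 at P60, against a lowest of 4.42, a median of 5.12 and a highest of 5.19 in juvenile libraries. Rarres2 alone of that list rose, with 1314, 784 and 706 TPM at P60, against 431, 494 and 641 TPM in juvenile libraries, and the median log2 fold change of the list was 0.83. After median-of-ratios rescaling 6 of the 10 rose, a setting in which 915 of all 13941 genes rose. Foxj1, the master transcription factor of motile cilia, averaged 15.4 ± 7.94 TPM at P60 and 16.3 ± 6.29 TPM in juvenile libraries, with an adjusted p of 0.869. A family of 58 genes whose symbols mark motile cilia (Cfap, Dnah, Dnai, Drc, Rsph and Tekt) was added after the values were seen. In it 5 rose and 0 fell (median 0.43), against 3.23% of all genes rising and 6.1% falling. The part of ependymal RNA in these rises was not tested. In bulk RNA, more or fewer cells of a type and more or less RNA per cell cannot be told apart.

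The 12 largest falls, also taken only from called genes whose groups did not overlap, included genes of autophagy, innate immunity, cytokine reception and endothelium. Depp1, a regulator of autophagy on chromosome 6 (chr6:116650609-116652794), had 7.35, 15.1 and 23.4 TPM at P60, against 30.4, 51.7 and 109 TPM in juvenile libraries (-1.93, SE 0.47, adjusted p = 0.0422). Pglyrp1, a peptidoglycan-recognition protein of innate immunity, had 26.5, 30.9 and 51 TPM at P60, against 95.3, 103 and 188 TPM in juvenile libraries (-1.71, SE 0.25, adjusted p = 0.00484). Neither gene overlapped between the groups, as the selection required. Il2rg, the common gamma chain of several cytokine receptors, had 2.67, 3.0 and 4.49 TPM at P60, against 10.1, 11.1 and 14.5 TPM in juvenile libraries, one of the smallest adjusted p-values of the comparison (0.000422). Adgrl4, an adhesion receptor of endothelial cells, had 12.8, 16.6 and 26.8 TPM at P60, against 43.2, 49.4 and 74.1 TPM in juvenile libraries. Depp1, Pglyrp1, Il2rg and Adgrl4 were each lowest in P60 library 1 and highest in P60 library 3 among the P60 libraries. The endothelial gene Kdr, given below, had the same order. The part of endothelial RNA in these falls was not tested. Igfbp3, a carrier of insulin-like growth factors, had 5.38, 5.9 and 7.05 TPM at P60, against 11.8, 18.4 and 42.6 TPM in juvenile libraries. Its juvenile values were split by age, with means of 13.3 TPM at P28 and 30 TPM at P21. Srarp and Tmem252 each fell to under 3 TPM in every P60 library. The cathepsin inhibitor Ctla2a, with a close paralog, and the 3 near-identical genes Tmem254a, Tmem254b and Tmem254c also fell, but reads of such copies can be shared between them, so the split of their values is uncertain.

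Endothelial genes, which mark the cells lining brain capillaries, fell in 11 of 13 cases and 0 rose, with a median log2 fold change of -1.04, against 6.1% of all genes falling and a median of -0.06. Kdr, VEGF receptor 2 (chr5:75932827-75978458), had 2.89, 3.3 and 4.73 TPM at P60, against 9.41, 11.8 and 17.7 TPM in juvenile libraries (-1.50, SE 0.18, adjusted p = 0.000804). Tek, the angiopoietin receptor, had 6.18, 6.21 and 9.58 TPM at P60, against 17.6, 20 and 22.9 TPM in juvenile libraries (-1.36, adjusted p = 0.000479). Egfl7, a factor secreted by endothelium, had 45.3, 40.2 and 67.4 TPM at P60, against 108, 117 and 155 TPM in juvenile libraries (-1.26, adjusted p = 0.00116). P60 library 3 was the highest of the P60 libraries for all 3 genes and still lay below every juvenile library. The transporters Slco1a4 and Abcb1a, the adhesion molecules Pecam1 and Esam, the tight-junction protein Ocln, and Flt1, Itm2a and Ly6c1 fell as well, by factors that ranged, over the 11, from 1.68 to 3.35. The tight-junction gene Cldn5 did not pass, with 61.5, 180.5 and 96 TPM at P60, against 174, 188 and 269.7 TPM in juvenile libraries (adjusted p = 0.0848), and P60 library 2 lay inside the juvenile range. Cdh5, the remaining gene, averaged 1.89 ± 0.438 TPM at P60 and 3.09 ± 0.397 TPM in juvenile libraries.

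The mean of the endothelial list was 4.67, 4.89 and 5.36 on the log2(TPM + 1) scale at P60, against a lowest of 5.81, a median of 5.94 and a highest of 6.28 in juvenile libraries. The 2 groups alone accounted for a share of 0.838 of the variance of that mean. With it as a covariate, an alternative added after the values were seen, limma called 0 genes, with 915 at an unadjusted p under 0.05 and a smallest adjusted p of 0.258. Age and the endothelial level therefore cannot be told apart in these 9 libraries, for the rises and the falls reported here alike. With 1 mean per age fitted to all 34 libraries, 1 endothelial gene fell.

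**Figure D2:**
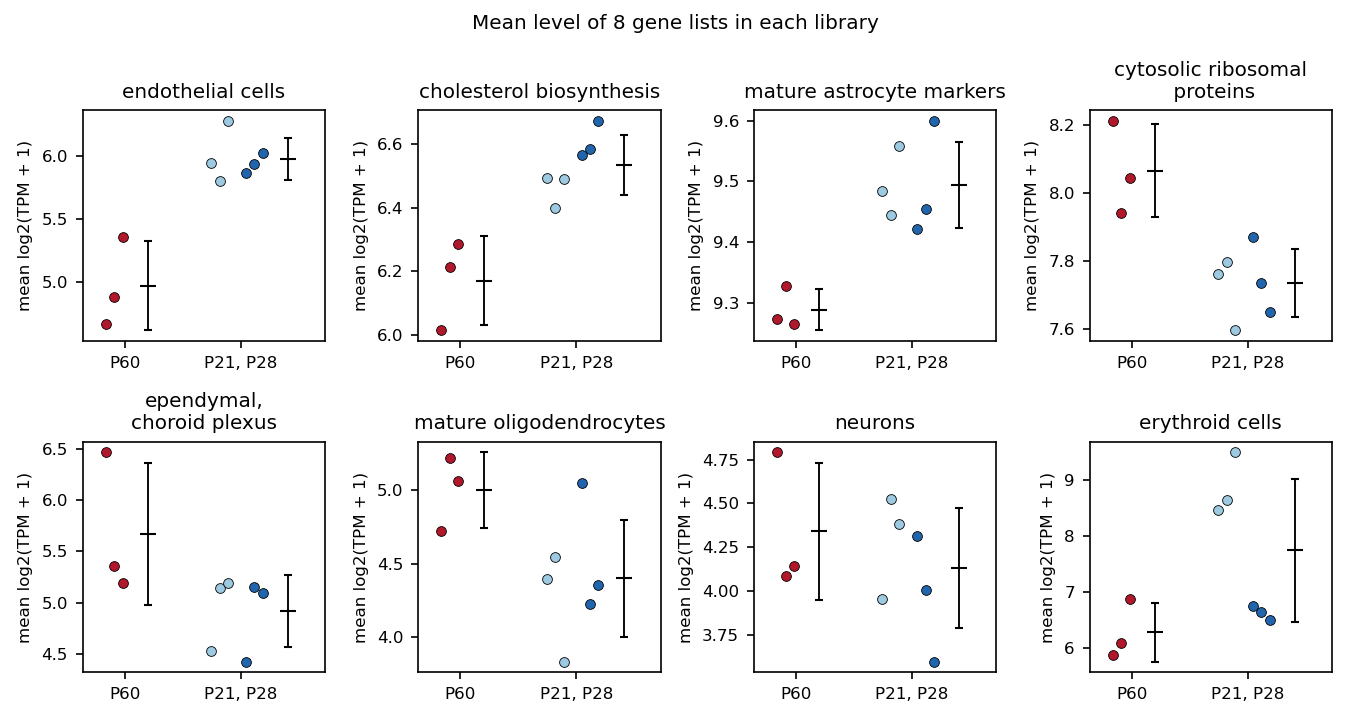
Mean log2(TPM + 1) of the tested members of 8 gene lists in each library (y axis, a different scale in each panel). Red points are the 3 P60 libraries, light blue points P21 and dark blue points P28, and the black marks beside them give the mean and SD of the 3 P60 and of the 6 juvenile libraries. P60 lies below the juvenile libraries for endothelial, cholesterol and astrocyte genes and above them for ribosomal genes, and overlaps them for neuronal genes.

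Other vascular and meningeal genes showed a mixed picture. Of 10 pericyte and smooth muscle genes 1 rose and 1 fell. Vtn, vitronectin of pericytes and plasma, had 2085, 4482 and 3928 TPM at P60, against 1081, 1536 and 2006 TPM in juvenile libraries (1.14, adjusted p = 0.041). Rgs5, a pericyte regulator of G-protein signalling, had 55.8, 63.6 and 90.5 TPM at P60, against 84.1, 103 and 115 TPM in juvenile libraries, and P60 library 3 lay inside the juvenile range. Collagens fell in 6 of 18 cases and rose in none, against 6.1% of all genes falling and 3.23% rising. The basement membrane chains Col4a1 and Col4a2 fell most: Col4a1 had 8.01, 8.97 and 8.54 TPM at P60, against 14.5, 18.7 and 24.9 TPM in juvenile libraries (-1.06, SE 0.14, adjusted p = 0.00122). Col4a2 averaged 5.51 ± 0.425 TPM at P60 and 11.9 ± 1.9 TPM in juvenile libraries (SD, n = 3 and 6), and the fibrillar chains Col1a1, Col1a2 and Col3a1 also fell. Igf2, a growth factor of meninges and choroid plexus, fell too, with 46.4, 56.7 and 55.3 TPM at P60, against 57.3, 74.3 and 86.3 TPM in juvenile libraries. The endothelial mean given above moved with these collagens, and its part in them was not tested.

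Hemoglobin and other erythroid transcripts had their highest values at P21. Alas2, the erythroid enzyme of heme synthesis, had 50.2, 48.7 and 114 TPM at P21, 16.3, 12.7 and 11.4 TPM at P28 and 7.8, 6.66 and 14.2 TPM at P60. None of the 6 erythroid genes was called in the pooled comparison (median -1.63). All 6 fell against P21 alone, beside 3.36% of all genes, and 0 against P28 alone, beside 6.89%. Between P28 and P21 0 were called, beside 0% of all genes, with limma adjusted p-values of 0.121 to 0.192. The alpha and beta globins have near-identical copies, so their single values are uncertain.

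Among 24 mature astrocyte markers, 8 fell and 2 rose (median -0.24), against 6.1% and 3.23% of all genes. Slc1a3, the glutamate transporter GLAST (chr15:8634124-8710764), had 2413, 2428 and 2531 TPM at P60, against 3102, 3299.6 and 3682 TPM in juvenile libraries (-0.44, SE 0.07, adjusted p = 0.00273). Gja1, connexin 43 of astrocyte gap junctions, had 1768, 2120 and 2079 TPM at P60, against 2506, 2699.6 and 3151 TPM in juvenile libraries (-0.47, adjusted p = 0.00686). The water channel Aqp4 had 361, 409.8 and 377 TPM at P60, against 466, 539.9 and 733 TPM in juvenile libraries (-0.52, adjusted p = 0.0154). All P60 libraries were below all juvenile libraries for these genes, by less than a factor of 2. Sox9, the transcription factor of gliogenesis, Fgfr3, the bicarbonate cotransporter Slc4a4, the sodium pump subunit Atp1b2 and the secreted chaperone Clu fell as well. S100b, a calcium-binding protein of mature astrocytes, rose instead, with 311, 326 and 278 TPM at P60, against 172, 216 and 229 TPM in juvenile libraries (0.56, SE 0.10, adjusted p = 0.00546). Etnppl, a lyase of phosphoethanolamine, had 300.1, 307 and 316 TPM at P60, against 165, 185 and 315 TPM in juvenile libraries, where P21 library 3 lay within the P60 range.

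The other 14 astrocyte markers were not called. The glutamate transporter GLT-1, Slc1a2, had 429, 364 and 404 TPM at P60, against 431, 473 and 483 TPM in juvenile libraries (adjusted p = 0.0812). Gfap, the intermediate filament of astrocytes, had 317, 359 and 203 TPM at P60, against 297, 417 and 492 TPM in juvenile libraries (adjusted p = 0.18). Glutamine synthetase, Glul, averaged 2614 ± 156 TPM at P60 and 2778 ± 161 TPM in juvenile libraries, and Aldh1l1, a folate enzyme used as a pan-astrocyte marker, averaged 194 ± 12.9 TPM at P60 and 220.3 ± 23.1 TPM in juvenile libraries. Median-of-ratios rescaling gave 5 falls, and with all 34 libraries none of the 24 markers was called.

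**Figure D3:**
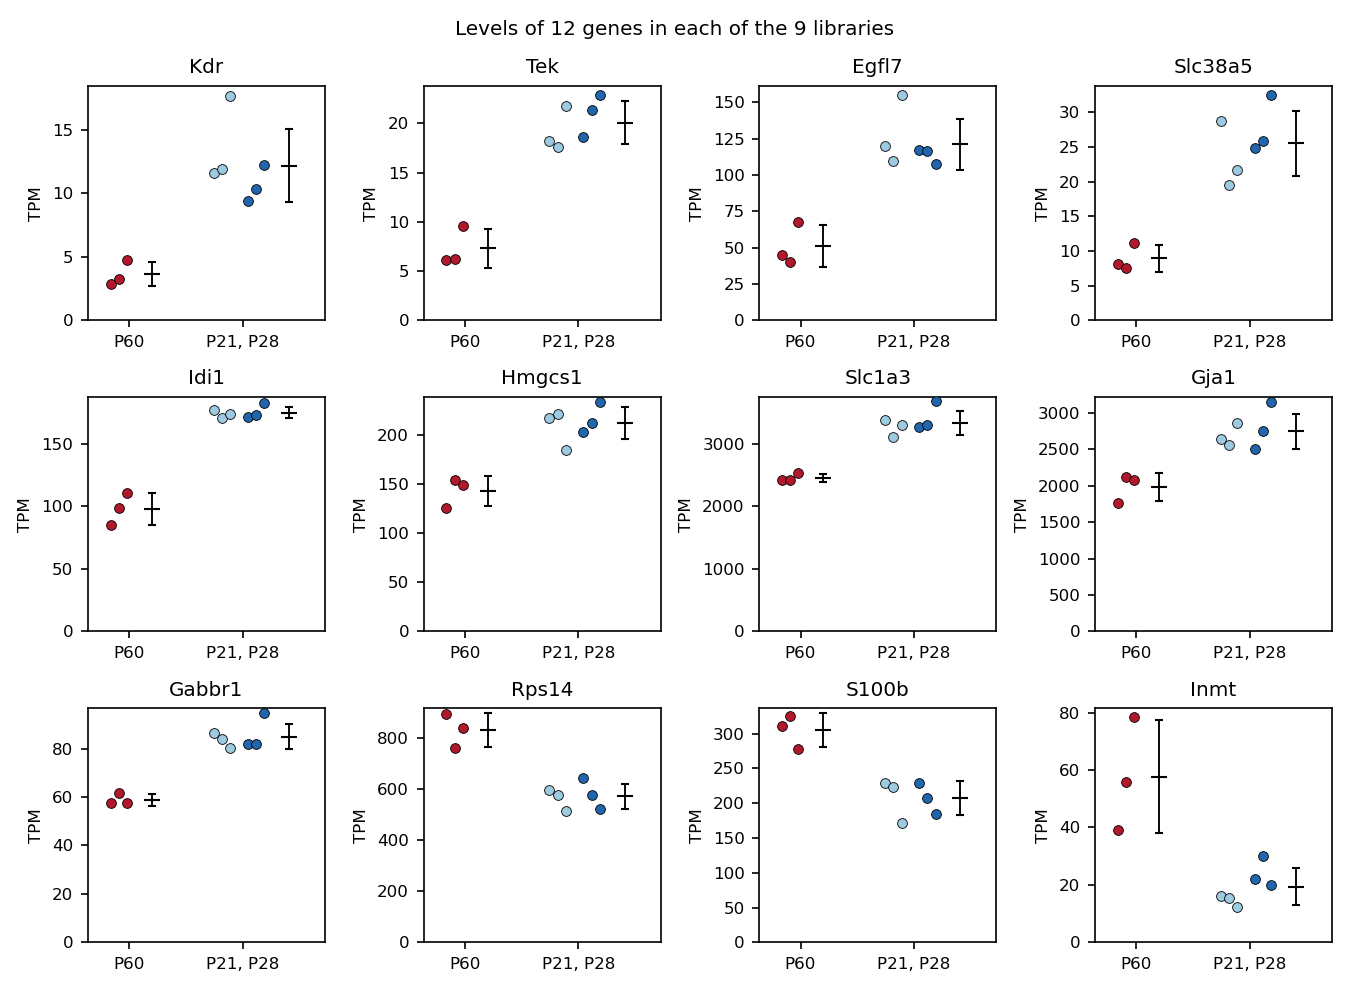
TPM of 12 genes in each library (y axes start at 0 and differ in scale). Red points are the 3 P60 libraries, light blue points P21, dark blue points P28, and the black marks give mean and SD of the 3 P60 and of the 6 juvenile libraries. No P60 library overlaps the juvenile libraries in these panels: the 3 genes in which P60 is higher are Rps14, S100b and Inmt.

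Astrocytes clear glutamate and GABA after release. Of 22 genes of glutamate and GABA handling 6 fell, 0 rose and 16 were not called (median -0.22), against 6.1% of all genes falling. Slc38a5, a glutamine transporter that brain endothelium also carries, had 8.13, 7.59 and 11.1 TPM at P60, against 19.6, 25.4 and 32.5 TPM in juvenile libraries (-1.42, SE 0.16, adjusted p = 0.000547). The GABA-B receptor subunit Gabbr1 had 57.5, 61.5 and 57.3 TPM at P60, against 80.3, 82.9 and 94.8 TPM in juvenile libraries (-0.52, adjusted p = 0.00231). The groups did not overlap for either gene. Gabbr2, the partner of Gabbr1, and the glutamate receptor Grm3 also fell. The GAT-3 transporter Slc6a11 averaged 211 ± 38.5 TPM at P60 and 273 ± 33 TPM in juvenile libraries (adjusted p = 0.0684). The list counted 6 falls without each of the 3 P60 libraries in turn.

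Of 22 genes of ion and water handling and coupling 7 fell and 0 rose (median -0.23), against 6.1% of all genes falling and 3.23% rising. Kcnk1, a leak potassium channel, had 463, 411 and 462 TPM at P60, against 614, 676 and 741 TPM in juvenile libraries (-0.61, SE 0.08, adjusted p = 0.00111). Dag1, the dystroglycan that anchors endfeet to the basement membrane, had 63.1, 75 and 65.2 TPM at P60, against 86.3, 92.7 and 119 TPM in juvenile libraries. No P60 value of either gene reached the juvenile range. The potassium channel Kcnj10 averaged 15.9 ± 2.32 TPM at P60 and 16.9 ± 0.317 TPM in juvenile libraries and was not called. Without P60 library 1 the falls of this list numbered 2, after median-of-ratios rescaling 4, and with all 34 libraries 0.

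Receptors for neuromodulators fell in 4 of 17 cases and rose in none, against 6.1% of all genes falling. Adra2a, the alpha-2A adrenergic receptor, had 6.45, 7.2 and 4.96 TPM at P60, against 11.4, 13 and 15.4 TPM in juvenile libraries (-0.98, SE 0.13, adjusted p = 0.00122). Cnr1, the cannabinoid receptor, had 2.2, 1.42 and 2.4 TPM at P60, against 3.43, 4.17 and 5.02 TPM in juvenile libraries. The endothelin receptor Ednrb had 201, 220 and 220.1 TPM at P60, against 263, 297 and 327 TPM in juvenile libraries. The P60 values lay below all juvenile values in each case, and the alpha-1B adrenergic receptor Adra1b fell as well. Slco1c1, a carrier of thyroid hormone in capillaries and astrocytes, was the 1 of 13 genes of thyroid hormone supply and response that fell, with 311, 279 and 381 TPM at P60, against 478, 584 and 682 TPM in juvenile libraries (-0.84, adjusted p = 0.00145).

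**Figure D4:**
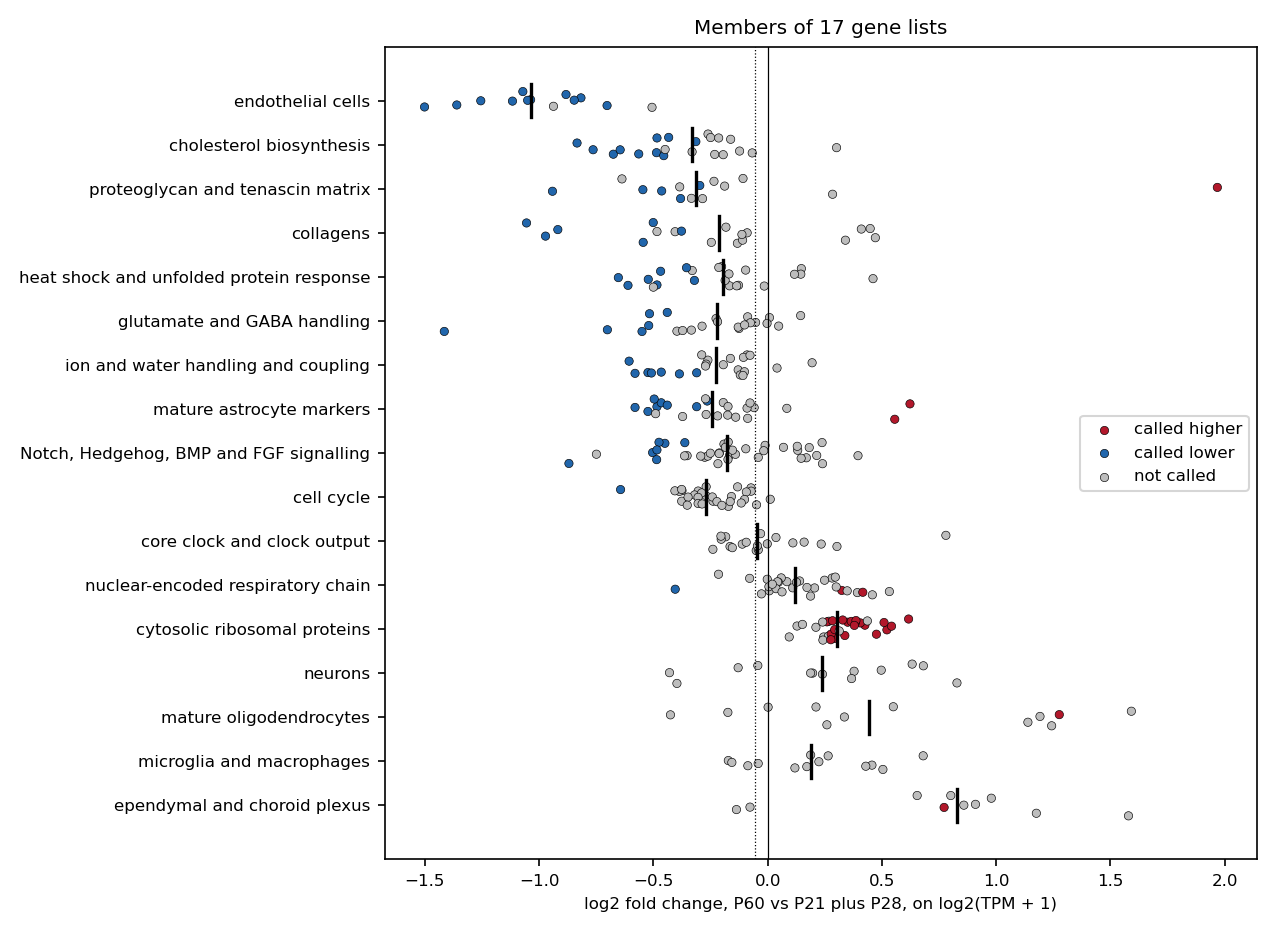
Log2 fold change, P60 relative to P21 plus P28, of each tested member of 17 gene lists. Red points were called higher, blue points lower and grey points were not called; black bars are list medians, the solid line marks 0 and the dotted line the median of all genes (-0.06). Endothelial genes lie furthest to the left and ribosomal protein genes all lie right of 0.

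Of 38 genes of Notch, Hedgehog, BMP and FGF signalling 7 fell and 0 rose (median -0.18), against 6.1% of all genes falling, and most members were not called. The 7 included the FGF receptor Fgfr3, the ERK-induced transcription factors Etv4 and Etv5, the phosphatase Dusp6 and the inhibitor Spred1. Etv5 had 41.9, 39.4 and 45.5 TPM at P60, against 52.6, 59.3 and 67.3 TPM in juvenile libraries (-0.48, adjusted p = 0.00915). Etv4 had 15.6, 17.4 and 17 TPM at P60, against 21, 23.7 and 28 TPM in juvenile libraries (-0.49, adjusted p = 0.0168). Spred1 had the largest fold change of the 7, with 24.2, 17.3 and 21.2 TPM at P60, against 34.9, 37.1 and 49.2 TPM in juvenile libraries (-0.87, SE 0.13, adjusted p = 0.00174). P60 and juvenile libraries did not overlap for these 3 genes. The BMP receptor Bmpr1b and the Notch target Hey1 were the other falls. Among 22 maturation and gliogenic transcription factors 4 fell and 0 rose: Sox9, Lhx2, Otx1 and Pou3f3. Lhx2, a LIM-homeodomain factor of cortical progenitors, had 96.2, 82.9 and 88.7 TPM at P60, against 101, 112 and 133 TPM in juvenile libraries. Without P60 library 2, 0 of these 22 fell.

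Progenitor genes fell in 3 of 18 cases and rose in none, against 6.1% of all genes falling. Nes, the intermediate filament of progenitors, had 2.97, 3.59 and 3.01 TPM at P60, against 4.81, 5.38 and 6.88 TPM in juvenile libraries (-0.63, adjusted p = 0.0154), and Egfr and Ptprz1 were the others. The groups did not overlap for Nes. Of 31 cell cycle genes tested, 30 had a negative fold change (median -0.27), but only Ube2c, a ubiquitin-conjugating enzyme of mitosis, fell, with 9.33, 6.64 and 8.71 TPM at P60, against 10.3, 13.7 and 18.2 TPM in juvenile libraries. Under median-of-ratios rescaling it missed the threshold.

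Perineuronal and pericellular matrix genes fell in 5 of 14 cases and rose in 1, against 6.1% of all genes falling and 3.23% rising. Hapln1, the link protein that ties hyaluronan to proteoglycans (chr13:89539796-89611652), had 43.1, 49.5 and 50.9 TPM at P60, against 80.8, 89.3 and 117 TPM in juvenile libraries (-0.94, SE 0.11, adjusted p = 0.000647). Brevican, Bcan, had 953, 978 and 1088 TPM at P60, against 1321, 1453 and 1667 TPM in juvenile libraries (-0.55, adjusted p = 0.00218). Neurocan, Ncan, averaged 26.4 ± 1.38 TPM at P60 and 36.9 ± 2.89 TPM in juvenile libraries, and Cspg5 and Ptprz1 fell as well. All 3 values of P60 were below the juvenile range for Hapln1, Bcan and Ncan. Hapln2, the link protein of myelinated nodes made by oligodendrocytes, rose, with 2.31, 2.47 and 7.73 TPM at P60, against 0, 0.079 and 1.21 TPM in juvenile libraries. The oligodendrocyte list stood beside it with a mean log2(TPM + 1) of 4.999 ± 0.255 at P60 and 4.399 ± 0.398 in juvenile libraries (SD, n = 3 and 6). Of its 12 genes only Opalin, a myelin membrane protein, rose. Of 11 precursor genes only Gpr17 fell.

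Cholesterol synthesis was the metabolic route with the most calls. Cells build cholesterol from acetyl-CoA through mevalonate, isoprenoids, squalene and lanosterol, and in many tissues the enzymes are transcribed together under the sterol-sensing factor SREBP-2. Of the 21 pathway genes 10 fell and 0 rose (median -0.33), against 6.1% of all genes falling. They spanned the route from its first steps to its last and included Hmgcs1 before mevalonate, Idi1 and Fdps for the isoprenoids, Sqle for squalene, and Cyp51, Msmo1, Hsd17b7, Sc5d and Dhcr7 after lanosterol. Promoters of the 4 called members named by rule and found in the RefSeq promoter table are shown because most pathway genes share a motif. Each run is the 250 bases before the annotated start, 5′ to 3′ on the gene's strand (build GRCm38.p6). Capitals mark CCAAT, read as ATTGG on the other strand, and in Hmgcs1 also the sterol regulatory element TCACNCCAC.
Idi1, chr13:8885356-8885605 (+): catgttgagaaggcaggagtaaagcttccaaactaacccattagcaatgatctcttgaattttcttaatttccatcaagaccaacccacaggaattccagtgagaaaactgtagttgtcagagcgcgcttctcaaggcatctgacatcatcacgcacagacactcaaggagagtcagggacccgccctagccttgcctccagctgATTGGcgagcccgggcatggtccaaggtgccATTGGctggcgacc
Hsd17b7, chr1:169969206-169969455 (-): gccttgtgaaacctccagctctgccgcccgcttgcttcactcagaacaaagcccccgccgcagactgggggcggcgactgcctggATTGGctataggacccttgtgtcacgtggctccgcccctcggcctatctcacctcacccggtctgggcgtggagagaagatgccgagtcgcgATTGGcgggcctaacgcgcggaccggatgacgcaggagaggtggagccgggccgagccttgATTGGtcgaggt
Hmgcs1, chr13:119690101-119690350 (+): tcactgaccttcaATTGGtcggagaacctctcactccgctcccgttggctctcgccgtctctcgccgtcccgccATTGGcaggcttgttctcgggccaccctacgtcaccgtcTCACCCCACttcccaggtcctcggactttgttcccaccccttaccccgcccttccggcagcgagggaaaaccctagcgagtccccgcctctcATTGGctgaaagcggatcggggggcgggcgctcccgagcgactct
Cyp51, chr5:4104698-4104947 (-): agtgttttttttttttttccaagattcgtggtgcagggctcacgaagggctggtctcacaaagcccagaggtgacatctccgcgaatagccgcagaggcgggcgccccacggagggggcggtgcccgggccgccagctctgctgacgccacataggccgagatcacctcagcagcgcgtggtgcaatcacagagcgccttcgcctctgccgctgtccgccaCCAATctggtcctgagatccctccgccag

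The 4 promoters held 2, 3, 3 and 1 CCAAT motifs in these 250 bases. Of the 16 pathway genes with a promoter in the table, 15 (93.8%) held CCAAT on either strand in the 300 bases from 250 before to 50 after the start, against 41.1% of all 27025 genes in the table. Counted by promoter, the shares were 78.9% of 19, against 37.4% of all 32851. The motif was found in 7 of 7 matched members that fell and in 8 of 9 that were not called. TCACNCCAC was found in 1 of the 16 genes, against 1.44% of all. The E-box CACGTG was found in 3 of the 16, all among the 7 that fell, against 8.09% of all. These are matches of letters and not measured sites.

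Idi1, the isopentenyl diphosphate isomerase shown first, had 84.9, 98.9 and 111 TPM at P60, against 171, 174 and 183 TPM in juvenile libraries (-0.83, SE 0.08, adjusted p = 0.000422). The 6 juvenile values lay close together, and each P60 library was well below them. Hsd17b7, a ketosteroid reductase, had 13.5, 15.4 and 19.4 TPM at P60, against 24.3, 28.3 and 29.3 TPM in juvenile libraries (-0.76, adjusted p = 0.00231). Hmgcs1, which makes HMG-CoA, had 126, 154 and 149.6 TPM at P60, against 185, 215 and 233 TPM in juvenile libraries (-0.56, adjusted p = 0.00267). No P60 library overlapped the juvenile range for these 3 genes or for Cyp51, the lanosterol demethylase, which had 52.6, 60.3 and 60.1 TPM at P60, against 78.7, 81.2 and 83.7 TPM in juvenile libraries. Msmo1, the most abundant enzyme of the pathway, averaged 869.9 ± 144 TPM at P60 and 1357 ± 146 TPM in juvenile libraries (adjusted p = 0.0041). The highest values not called were those of Fdft1, squalene synthase, at 214 ± 44.9 TPM at P60 and 249 ± 28.8 TPM in juvenile libraries (adjusted p = 0.278), and Ebp was the 1 gene of the list with a positive fold change.

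Of 18 genes of sterol control and transport only Stard4, a carrier of cholesterol within cells, fell, against 6.1% of all genes falling. It had 2.29, 2.79 and 3.61 TPM at P60, against 4.8, 5.57 and 6.71 TPM in juvenile libraries (-0.78, adjusted p = 0.0077). Srebf2, which encodes SREBP-2, averaged 117 ± 6.21 TPM at P60 and 110.4 ± 12.5 TPM in juvenile libraries (adjusted p = 0.602). The lipoprotein Apoe averaged 58716 ± 9514 TPM at P60 and 52438 ± 5596 TPM in juvenile libraries (adjusted p = 0.385). The pathway counted 9 falls after median-of-ratios rescaling, 6 without P60 library 1, 5 with all 34 libraries, and 1 with the ependymal mean as a covariate.

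Of 24 genes of glycolysis, lactate and glycogen 4 fell and 0 rose, against 6.1% of all genes falling. Ldha, a lactate dehydrogenase subunit, had 369, 344 and 361 TPM at P60, against 555, 580.1 and 627 TPM in juvenile libraries (-0.71, SE 0.07, adjusted p = 0.000422). Its partner Ldhb averaged 2887 ± 129 TPM at P60 and 2493 ± 170.4 TPM in juvenile libraries, a log2 fold change of 0.21 that was not called (adjusted p = 0.0982). The monocarboxylate carrier Slc16a1 had 33.1, 46.6 and 36.6 TPM at P60, against 59.9, 69.1 and 82.3 TPM in juvenile libraries (-0.85, adjusted p = 0.00147). P60 was below all juvenile libraries for both Ldha and Slc16a1. The glucose carrier Slc2a1, shared with Slc16a1 by capillary endothelium, and the glycogen synthase Gys1 were the other falls. Among glycolytic enzymes that were not called, the phosphofructokinase Pfkp had a log2 fold change of -0.35 (adjusted p = 0.0613), its relative Pfkm one of -0.24 (adjusted p = 0.0588) and the triose phosphate isomerase Tpi1 one of 0.14 (adjusted p = 0.421).

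In the respiratory chain 2 of 30 nuclear genes rose and 1 fell (median 0.12), against 3.23% of all genes rising and 6.1% falling. Ndufa2, a complex I subunit, had 717, 618 and 705 TPM at P60, against 438, 525 and 563 TPM in juvenile libraries, whereas Cycs, cytochrome c, had 272, 202 and 265 TPM at P60, against 285, 325 and 365 TPM in juvenile libraries. Both pairs of ranges were separate. Of 23 genes of fatty acid oxidation and ketones 2 rose and 0 fell: the thiolase Acaa2, with 279, 359 and 307 TPM at P60, against 221, 231 and 262 TPM in juvenile libraries, and the electron carrier Etfb. Cyp27a1, which hydroxylates cholesterol at its side chain, rose by 1.07 (SE 0.17, adjusted p = 0.00266), with 20.5, 25.8 and 24.3 TPM at P60, against 8.7, 10.1 and 16.2 TPM in juvenile libraries. Cyp7b1, the oxysterol hydroxylase, fell, with 63.4, 66.2 and 67.9 TPM at P60, against 71, 81.5 and 94.9 TPM in juvenile libraries.

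Ribosomal protein genes gave the largest group of rises. Of 32 listed genes 20 rose and 0 fell (median 0.30), against 3.23% of all genes rising. Rps14 had 894, 762 and 838 TPM at P60, against 515, 577 and 643 TPM in juvenile libraries (0.54, SE 0.09, adjusted p = 0.00254). Rps15 had 506, 419.6 and 429 TPM at P60, against 278, 326 and 356 TPM in juvenile libraries (0.51, adjusted p = 0.00653). Rpl19 had 412, 358 and 387 TPM at P60, against 266, 293 and 324 TPM in juvenile libraries (0.38, adjusted p = 0.0109). P60 library 1 was highest for all 3, and the groups did not overlap. Among all 80 genes with an Rpl or Rps symbol, a family added after the values were seen, 54 rose and 1 fell, the fall being Rpl7l1, which is a ribosomal protein paralog. Processed pseudogenes of these genes are many, so single values are uncertain. Only 2 of the 32 were called without P60 library 1, 8 without P60 library 3, and 0 with all 34 libraries.

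These genes are short, with a median transcript length of 0.775 kb for the list, against 2.15 kb for all genes with a length. Length went with direction across all genes. The 449 genes that rose and have a length had a median of 0.902 kb, and the 850 that fell 2.53 kb. With genes cut into 5 bins of nearly equal number by length, 10.3% rose and 4.56% fell in the shortest bin, and 0.431% rose and 6.25% fell in the longest. Spearman's rho between fold change and length over 13923 genes was -0.201, a description across genes that share libraries. Per library, the correlation of each gene's deviation with length was -0.215, -0.131 and -0.11 at P60, against a range from -0.132 to 0.222 in juvenile libraries. With the length trend removed from each library, an alternative added after the values were seen, 1653 genes were called and 8 of the 32 ribosomal genes rose. The same setting gave 10 endothelial falls and 12 for cholesterol synthesis.

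**Figure D5:**
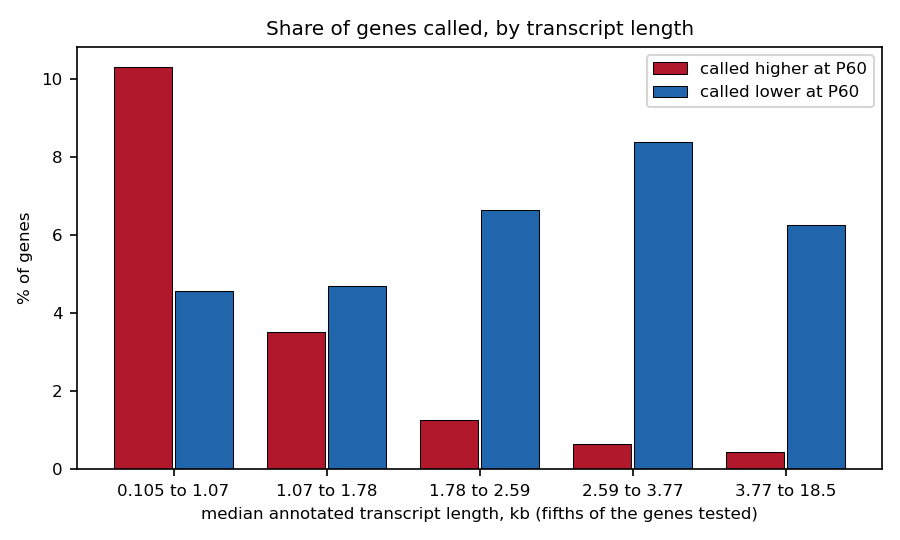
Share of genes called higher (red) and lower (blue) at P60, as % of the genes in each of 5 bins of median annotated transcript length (x axis, kb). The share called higher is 10.3% in the shortest bin and 0.431% in the longest, while the share called lower lies between 4.56% and 8.37%.

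Of 22 genes of the heat shock and unfolded protein responses 7 fell, 0 rose and 15 were not called (median -0.19), against 6.1% of all genes falling. Hspa5, the chaperone BiP of the endoplasmic reticulum, had 246, 294 and 286 TPM at P60, against 395, 409 and 487 TPM in juvenile libraries (-0.61, SE 0.09, adjusted p = 0.00144). Hspa8, the constitutive cytosolic chaperone Hsc70, had 675, 885 and 956 TPM at P60, against 1224, 1269 and 1545 TPM in juvenile libraries (-0.65, adjusted p = 0.00322). Its cochaperone Dnaja1 had 146, 159.5 and 169 TPM at P60, against 204, 225 and 233 TPM in juvenile libraries (-0.48, adjusted p = 0.00243). The groups did not overlap for these 3. The lectin chaperones Calr and Canx, Dnajb1 and the transcription factor Xbp1 fell as well. The strongly heat-inducible Hspa1a and Hspa1b, which have near-identical sequences, and Hsp90aa1 were not called, with Hsp90aa1 at 703 ± 257 TPM at P60 and 499 ± 97.9 TPM in juvenile libraries. None of 22 proteasome genes was called by limma, although 3 rose after median-of-ratios rescaling, where 915 of all 13941 genes rose.

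Antioxidant genes rose in 3 of 23 cases, against 3.23% of all genes. Gstm1, a glutathione transferase, had 5050.3, 4310.3 and 4425 TPM at P60, against 3071, 3315 and 3566 TPM in juvenile libraries (0.47, adjusted p = 0.00352). Gstp1 had 722, 727 and 774 TPM at P60, against 458, 515 and 546 TPM in juvenile libraries (0.55, SE 0.07, adjusted p = 0.00122). Superoxide dismutase, Sod1, had 214, 194 and 210.4 TPM at P60, against 128, 144 and 148 TPM in juvenile libraries (0.55, adjusted p = 0.00141). All P60 values were above all juvenile values. Gstm1 and Gstp1 have close paralogs, so their values are uncertain. Slc7a11, the cystine importer, fell instead, with 30.5, 45.7 and 38.8 TPM at P60, against 54.4, 58.8 and 77.7 TPM in juvenile libraries (-0.71, adjusted p = 0.00728).

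Immune and reactive genes showed few calls, beside 3.23% of all genes rising and 6.1% falling. Of 13 pan-reactive astrocyte genes 0 were called, with Vim, the closest to the threshold, at 133 ± 16.1 TPM at P60 and 112 ± 11.6 TPM in juvenile libraries (adjusted p = 0.159). Lcn2 had the largest fold change of that list (-2.04, adjusted p = 0.174). It averaged 0.622 ± 0.380 TPM at P60 and 9.38 ± 10.9 TPM in juvenile libraries, without overlap. Against P21 alone Lcn2 was lower at P60 (limma adjusted p = 0.0468), beside 3.36% of all genes. Of 11 neuroinflammatory reactive genes Srgn and Amigo2 fell. Of 13 complement genes C1ra, a serine protease of the classical pathway, rose, with 3.2, 4.72 and 4.59 TPM at P60, against 1.32, 1.94 and 2.95 TPM in juvenile libraries, and Clu fell. None of 24 interferon-stimulated genes was called in the pooled comparison. Against P28 alone Gbp3, Irf7, Isg15, Ifi44 and Rtp4 were lower at P60 (limma adjusted p of 0.0137 to 0.0441), beside 6.89% of all genes. Against P21 alone Ifitm3 and Ifi27 were higher (adjusted p = 0.0248 and 0.0496), beside 3.95% of all genes. Among 13 genes of MHC class I presentation H2-M3 rose, with sequence shared within that family, and the chaperones Calr and Pdia3 fell. None of 13 microglial genes was called, with P2ry12 at 23, 19.6 and 16.8 TPM at P60, against 14.3, 17.8 and 19.4 TPM in juvenile libraries.

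Of 20 glucocorticoid-responsive genes 2 fell and of 20 immediate early genes 3 fell, against 6.1% of all genes. Ddit4, an inhibitor of mTOR that glucocorticoids induce, had 4.79, 7.75 and 6.33 TPM at P60, against 10.7, 18.4 and 19.2 TPM in juvenile libraries (-1.23, SE 0.20, adjusted p = 0.00413), and the receptor gene Nr3c1 was the other glucocorticoid-responsive fall. Ddit4 did not overlap between the groups. The immediate early genes that fell were Klf2, Dusp6 and Ier5, and Klf2, a factor of endothelial flow sensing, had 20.6, 30.4 and 52.8 TPM at P60, against 59, 62.5 and 70.3 TPM in juvenile libraries. The 19 clock genes had 0 calls, with Ciart, a repressor within the clock, at 129.6, 128 and 136 TPM at P60, against 51.1, 84.2 and 103 TPM in juvenile libraries (adjusted p = 0.0563). Ciart was higher in each P60 library than in each juvenile library. Median-of-ratios rescaling called 2 clock genes, beside 1761 of all 13941 genes.

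Chromatin genes held single calls, and the counts below stand beside 3.23% of all genes rising and 6.1% falling. Mbd2, a reader of methylated DNA, had 37, 30.1 and 35 TPM at P21, 55.4, 54.1 and 73.8 TPM at P28 and 22.3, 22.1 and 15.8 TPM at P60 (-1.15, adjusted p = 0.0276 for the pooled comparison). P28 was the highest of the 3 ages. Tdg, a glycosylase of DNA demethylation, had 21.1, 22.6 and 22.6 TPM at P60, against 29.5, 30.8 and 33.8 TPM in juvenile libraries. Of 19 Polycomb and chromatin genes 1 rose, the histone deacetylase Hdac11, and 1 fell. Among lysosome and autophagy genes, 25 in number, Gabarap rose and Grn and Tfeb fell, and Srr, the serine racemase, was the 1 of 19 serine, glycine and folate genes that fell. The Y-linked Ddx3y, an RNA helicase, fell, with 33.7, 30.4 and 36.6 TPM at P60, against 39.4, 44.4 and 56 TPM in juvenile libraries, and the other 3 Y-linked genes were not called.

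In the pooled comparison no call was made in the lists of neurons (13 genes), immature neurons (8), synapse-regulating genes (23) or lymphocytes (3), beside 9.33% of all genes. Against P21 alone Sparc and Thbs4 were lower at P60 (limma adjusted p = 0.0103 and 0.0474), beside 3.36% of all genes. Against P28 alone Chrdl1, Nrcam, Il33 and the immature neuron gene Dlx2 were lower (limma adjusted p of 0.00712 to 0.0454), beside 6.89% of all genes. Among synapse-regulating genes, Sparcl1, hevin, averaged 4565 ± 343 TPM at P60 and 5084 ± 393 TPM in juvenile libraries (adjusted p = 0.258). Nrcam, an adhesion molecule of perisynaptic astrocytes, averaged 109.6 ± 13.8 TPM at P60 and 141 ± 18.7 TPM in juvenile libraries (adjusted p = 0.0596). With the neuronal and oligodendrocyte means as covariates 132 genes were called, 58 higher and 74 lower. A p that misses the threshold does not show that the levels were alike.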

How the data were processed

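Polyadenylated RNA of isolated cortical astrocytes was deposited as 1 table of TPM, 1 column per library. The authors made the TPM values; per the submitters' processing notes, the build was mm10 and the tools were DESeq2 1.36.0, RSEM 1.2.28, STAR 2.7.1a and Trim Galore 0.6.4, with no role given. Libraries were grouped by the labels' age. Log2(TPM + 1) values of the 13941 genes that reached 1 TPM in 3 or more of 9 libraries were fitted with limma 3.58.1 in R 4.3.3 (2 groups, empirical Bayes with trend and robust settings, statmod 1.5.0), and p-values were adjusted over all of them. Depth is unknown, and 3 against 6 libraries limit the precision.

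The members, the 47 gene lists and the tests were chosen with earlier results of these data known. Genes named were the 12 largest rises and 12 largest falls (called, groups apart, higher mean of 5 TPM or more, no predicted symbols), up to 4 called members of smallest p per list or the closest 1, and a fixed astrocyte and marker set. Some genes of the lists are not reported here by name. Other members named, mainly those not called, were chosen after their values were seen. Alternatives covered pseudocount, filter, scaling, the juvenile ages taken singly, covariates, a replicate block, array weights, transcript length and leaving out each library. On simulated data for this comparison with 13941 genes, 57 of 100 genes changed 1.5-fold and 81 of 100 changed 2-fold were recovered. Of the 147 calls on these data, 9 were false. These counts describe the simulated data only. The rate of recovery or of false calls in the measured libraries was not tested. Promoters are from RefSeq (GRCm38.p6). Python 3.11.15, pandas 2.3.3 and matplotlib 3.10.9 drew the figures.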

Additional observations from a re-analysis of the deposited data

Results flagged for a closer look

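In the 6 juvenile libraries, 23 of 184 values tested had 1 library apart from the other 5 by Dixon's test at the 95% level, where chance alone flags about 1 in 20.

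P21 library 3 stood apart for 9 genes. It was high for the endothelial genes Kdr (17.7 TPM, others up to 12.2), Egfl7 (155 TPM, others up to 120.1) and Cldn5 (269.7 TPM, others up to 194). It was also high for Pglyrp1 (188 TPM), Il2rg (14.5 TPM), Etnppl (315 TPM), Hspa5 (487 TPM) and Hspa8 (1545 TPM), and low for Calr (285 TPM, others from 333). The endothelial list mean of that library, 6.28, was also the highest of the 6.

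P28 library 3 was high for Aqp4 (733 TPM), Cyp27a1 (16.2 TPM), Krt18 (6.145 TPM), Spred1 (49.2 TPM) and Ifi44 (9.42 TPM, others up to 3.96). The same library had the highest list mean for interferon-stimulated genes (4.87, others up to 4.22) and for fatty acid oxidation and ketones (6.74, others up to 6.58).

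P28 library 1 was high for Opalin (5.98 TPM), Hapln2 (1.21 TPM, others at most 0.0926), Trf (71.9 TPM) and Prxl2b (170.2 TPM). P21 library 2 was low for Cd59b (5.92 TPM) and Srgn (50.4 TPM), and P21 library 1 was low for the mean of immature neuron genes (0.984, others from 1.32).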

How the results depend on the processing

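The number of genes called (1300, with 450 higher and 850 lower) moved by over 1.5 times under several settings. Median-of-ratios rescaling gave 915 higher and quantile normalization 736 higher. 1 mean per age over all 34 libraries gave 510 (221 higher, 289 lower). P21 as the only juvenile age gave 681, with 314 lower, and P28 as the only one gave 853, with 169 higher. Neuronal and oligodendrocyte covariates gave 132 (58 higher, 74 lower), and a fold of at least 2 gave 94 (26 higher, 68 lower). Of settings chosen after seeing the data, the ependymal covariate gave 267 (85 higher, 182 lower) and the endothelial covariate 0 (0 higher, 0 lower). Leaving out 1 library gave 477 to 1207 calls, with 165 to 455 higher and 312 to 835 lower. Without P60 library 1 the calls were 477 (165 higher, 312 lower) and without P60 library 2 they were 642 (241 higher, 401 lower).

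For P60 vs P21 (1018), leaving out 1 library gave 441 to 1068, with 576, 441 and 504 without P21 library 1, 2 and 3, and 539 and 590 without P60 library 1 and 2. For P60 vs P28 (1156), median-of-ratios rescaling gave 684 and leaving out 1 library 206 to 1248, with 301 and 206 without P28 library 2 and 3, and 460 and 480 without P60 library 1 and 2. For P28 vs P21 (0), rescaling gave 8 and leaving out 1 library 0 to 7. The fewer genes at 0 TPM (-412.7) became -111.8 for genes under 0.1 TPM (p = 0.452), and -488.5 to -350.5 with 1 library left out, where 2 P60 libraries allow no exact p below 0.0714. The cause of these shifts was not tested, apart from the smaller samples.

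Under the endothelial covariate 10 named genes that fell had positive values, none called: Adgrl4 0.0431, Amigo2 0.20, Ctla2a 0.0633, Depp1 0.13, Gpr17 0.25, Klf2 0.23, Otx1 0.0682, Rgs5 0.34, Slc2a1 0.23 and Slco1a4 0.00589. No named gene changed direction under the other 24 settings where it or the alternative was called. Replicate numbers did not pair libraries: their deviations correlated by 0.0324 on average over 9 same-numbered pairs (-0.163 to 0.239). The replicate block gave 1423 calls, and P60 and juvenile libraries share a number only in name.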
